A study of Mus musculus with 6 samples.

Results

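The insulin-like growth factor (IGF) system was followed here through 10 genes, the ligand genes Igf1 and Igf2, the receptor genes Igf1r and Igf2r, and the binding protein genes Igfbp2 to Igfbp7. They were chosen by gene symbol, through the match of mouse Ensembl identifiers to GENCODE M21 (mm10), and each of the 10 has 1 row among the 21785 gene rows of the deposited table. IGF-I and IGF-II are secreted peptides that signal growth and survival through the tyrosine kinase receptor encoded by Igf1r. The receptor encoded by Igf2r takes up IGF-II for breakdown in lysosomes, and the secreted binding proteins hold the ligands in the fluid and matrix around cells, where proteases release them. In artery walls, smooth muscle cells make several of these proteins and respond to IGF-I by growth and migration.

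Total RNA of PASMCs, smooth muscle cells from the walls of pulmonary arteries, was sequenced. The cells were grown from lungs of C57BL/6 mice. The 3 stimulated samples were given 2 ligands of the TGF-beta family for 6 h, bone morphogenetic proteins BMP9 at 1 ng/mL and BMP10 at 5 ng/mL. The 3 control samples received neither, and both groups had 48 h without medium supplements before that. The comparison asks which genes differ after BMP9 and BMP10. The labels do not say whether samples were separate cultures or animals, so the p-values measure the spread between these samples, which may be technical. The cells grew out of lung pieces held back by a magnet after the arteries had been filled with iron in agarose, and the labels describe no sort.

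The values are normalized read counts, which sum to 30.8 to 31.9 M in stimulated libraries and 27.3 to 28.3 M in control libraries. Estimated reads were 23.3 to 54.4 M in stimulated and 26.4 to 28.1 M in control libraries. All 10 smooth muscle markers on the list used (Acta2, Myh11 and others) reached at least 10 in every library. Their values summed to 100355 to 204646 in stimulated and 44422 to 66004 in control libraries. Most of this sum came from Acta2. Limma called 5 of the 10 as higher and 0 as lower, beside 8.61% of all genes that rose and 4.75% that fell. Des did not share this direction, at 3571, 5141 and 3526 in stimulated and 3780, 6649 and 6344 in control replicates 1, 2 and 3. No marker on any list was at 0 in a library. The 8 pericyte markers, of which 7 reached 10 in every library, summed to 30606 to 34790 in stimulated and 18691 to 19937 in control libraries. Of them 2 were called as higher and 0 as lower, beside the same shares of all genes. Most of the sum came from Pdgfrb. Not all shared its direction. Kcnj8 was at 209, 261 and 170 in stimulated and 228, 879 and 366 in control replicates 1, 2 and 3. Abcc9 was at 294, 571 and 355 in stimulated and 245, 983 and 489 in control replicates. All 10 fibroblast markers reached 10 in every library, with 1 called as lower and 0 as higher, beside the same shares of all genes. They summed to 258802 to 460981 in stimulated and 303212 to 406990 in control libraries. This was above the smooth muscle sum in each library, and most of it came from Col1a1 and Col1a2. The sums were not scaled by gene length, so they do not rank cell types. All 12 leukocyte markers also reached 10 everywhere, and limma called 0 of them and 0 of the 12 endothelial markers. Their sum was 147625 to 223358 in stimulated and 99416 to 172098 in control libraries, most of it from the lysozyme gene Lyz2. All 12 endothelial markers reached 10, with sums of 9658, 43468 and 16158 in stimulated replicates 1, 2 and 3 and of 12063, 45332 and 14120 in the control replicates. Replicate 2 thus stood apart in both groups. Fewer cells of a type and less RNA per cell cannot be told apart in such bulk samples.

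Across the 10 genes, Igf1 rose and Igfbp5 fell after BMP9 and BMP10, and the other 8 did not pass the test. The test was limma on log2(value + 1) with Benjamini-Hochberg adjustment over 21743 genes, and 13.4% of all genes passed at an adjusted p under 0.05 (8.61% rose and 4.75% fell). Calls for 2 of 10 genes are near that background. The median log2 change, stimulated minus control, was -0.44 over the 10 genes and -0.03 over all genes tested. Stimulated and control values did not overlap for 3 of the 10 genes, against 33.2% of all genes. Igf1 and Igf1r were apart upward (17.8% of all genes) and Igfbp5 downward (15.4%). The same 3 genes had an unadjusted p under 0.05, as had 28.7% of all genes. Replicate numbers are shared by both groups, but no label gives their meaning. Pairing by number was accepted from correlations in these same values, which were 0.747, 0.741 and 0.218 within pairs 1, 2 and 3. Pair 3 is the least certain, as control replicate 3 was closer to stimulated replicate 1 (0.287). The blocked fit and the within-pair differences rest on this pairing. With the replicate number as a block, limma called 6 of the 10, Igf1 and Igf1r as higher and Igf2r, Igfbp3, Igfbp5 and Igfbp6 as lower, against 26.8% of all genes (14.9% higher and 12.0% lower). These 6 were also the only ones of the 10 with the same direction in all 3 same-numbered pairs, beside 55.4% of all genes. The blocked fit favours such genes, so this agreement is no separate evidence. Group means carry their SD (n = 3 per group). Each change is stimulated minus control in log2(value + 1) units, with its SE.

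**Figure D1:**
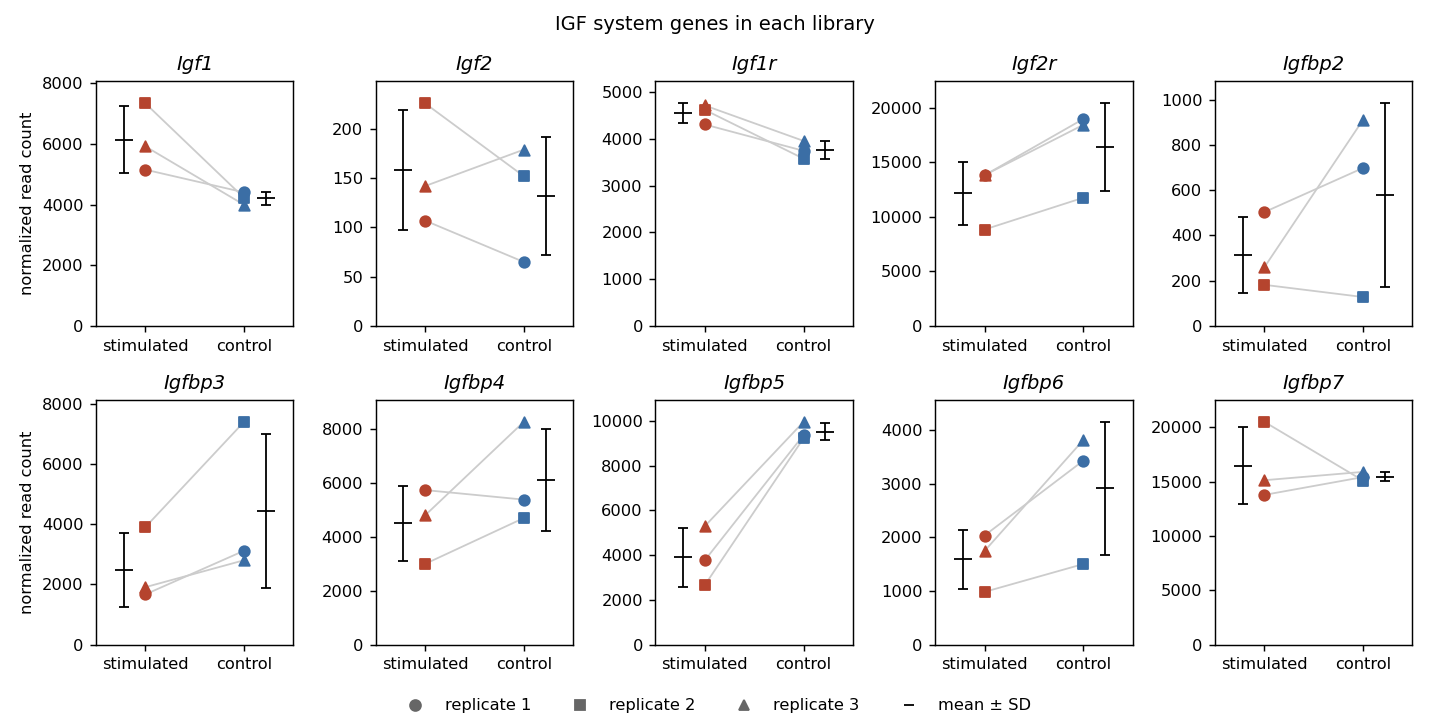
Normalized read counts (linear axis from 0) of the 10 genes in each library, stimulated left and control right, with replicate numbers as symbols, same-numbered libraries joined by grey lines, and mean ± SD beside the points. Stimulated values lie above all control values for Igf1 and Igf1r and below them for Igfbp5, and overlap for the other 7 genes.

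Igf1 encodes IGF-I, the main local ligand of the receptor. Its gene lies on the plus strand of chromosome 10 from 87858265 to 87937042 (mm10). It was at 5152, 7338 and 5919 in stimulated replicates 1, 2 and 3 and at 4403, 4223 and 3993 in control replicates 1, 2 and 3. Every stimulated library was above every control library, and the controls lay closer together (6136 ± 1109 in stimulated and 4206 ± 206 in control samples). The change was 0.53 ± 0.13 (limma adjusted p = 0.042), with 0.23, 0.80 and 0.57 within pairs 1, 2 and 3. The call depended on single libraries. Leaving out stimulated replicate 2 gave 0.39 (limma adjusted p = 0.058), stimulated replicate 3 gave 0.55 (0.13), and control replicates 1, 2 and 3 gave 0.56 (0.105), 0.53 (0.0844) and 0.49 (0.142). With equal library totals, which move the median of all genes to -0.20, the change was 0.36 and was not called by limma (adjusted p = 0.0958). Nor was it called with upper-quartile scaling (limma adjusted p = 0.0557) or by limma-voom (0.0971). Without both replicate 2 libraries it was 0.40 and was not called either (limma adjusted p = 0.0795). Igf1 is also made by macrophages. The leukocyte marker sum was 223358, 147625 and 196281 in stimulated replicates 1, 2 and 3 and 172098, 161986 and 99416 in the controls, and its part in the result was not tested.

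The window around the RefSeq start of Igf1 is shown because Igf1 was the gene that rose. The window runs from 250 bases before to 50 bases after the RefSeq start, at chr10:87860861-87861160 on the plus strand of GRCm38.p6. It lies inside the GENCODE gene given above, whose first base is further upstream. Capitals mark GGCGCC, a GC-rich element bound by BMP-activated SMADs.
Igf1: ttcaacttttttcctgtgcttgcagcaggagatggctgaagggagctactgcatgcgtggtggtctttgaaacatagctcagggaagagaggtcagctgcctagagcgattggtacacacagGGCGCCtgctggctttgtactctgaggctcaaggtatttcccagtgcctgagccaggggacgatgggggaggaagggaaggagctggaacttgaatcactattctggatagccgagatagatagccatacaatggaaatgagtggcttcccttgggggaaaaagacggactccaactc
Among the 14 RefSeq windows of the 10 genes, this was the single one with GGCGCC, which was found at 128 bases before the start (position -128). Of all 32851 windows of 300 bases in the reference, 11.9% hold it. A match of letters is a description and no evidence of binding.

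Igf2, which encodes IGF-II, had few counts. It was at 107, 226 and 142 in stimulated replicates 1, 2 and 3 and at 65, 152 and 179 in the controls. The groups overlapped, and the change was 0.32 ± 0.43 (limma adjusted p = 0.686), or -0.13 without control replicate 1. Igf2 lies on the minus strand of chromosome 7 from 142650766 to 142666816, and 62.8% of its exonic bases are shared with an annotated same-strand gene (Gm49394), so its level is uncertain.

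The signalling receptor gene Igf1r was slightly higher in every stimulated library, at 4309, 4622 and 4716, against 3746, 3578 and 3958 in controls (replicates 1, 2 and 3). It lies on the plus strand of chromosome 7 from 67952827 to 68233668. The change of 0.27 ± 0.08 did not pass limma (adjusted p = 0.0623), whereas it passed once replicates were blocked (adjusted p = 0.0221) or when genes needed at least 1 CPM in 3 libraries to be tested (adjusted p = 0.0372). The change was 0.20, 0.37 and 0.25 within the pairs. Equal library totals together with the block gave 0.10, which limma did not call (adjusted p = 0.224).

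Igf2r, the clearance receptor gene, was lower in every pair. It lies on the minus strand of chromosome 17 from 12682406 to 12769664. Values were 13800, 8833 and 13812 in stimulated replicates 1, 2 and 3 and 18952, 11743 and 18419 in the controls. Replicate 2 was the lowest library of both groups, so the groups overlapped although each pair differed by nearly the same amount (-0.46, -0.41 and -0.42). The change was -0.43 ± 0.24 (limma adjusted p = 0.299) and, with the replicate block, -0.43 ± 0.06 (adjusted p = 0.00313). Without both replicate 2 libraries it was -0.44 and was called (limma adjusted p = 0.0239).

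**Figure D2:**
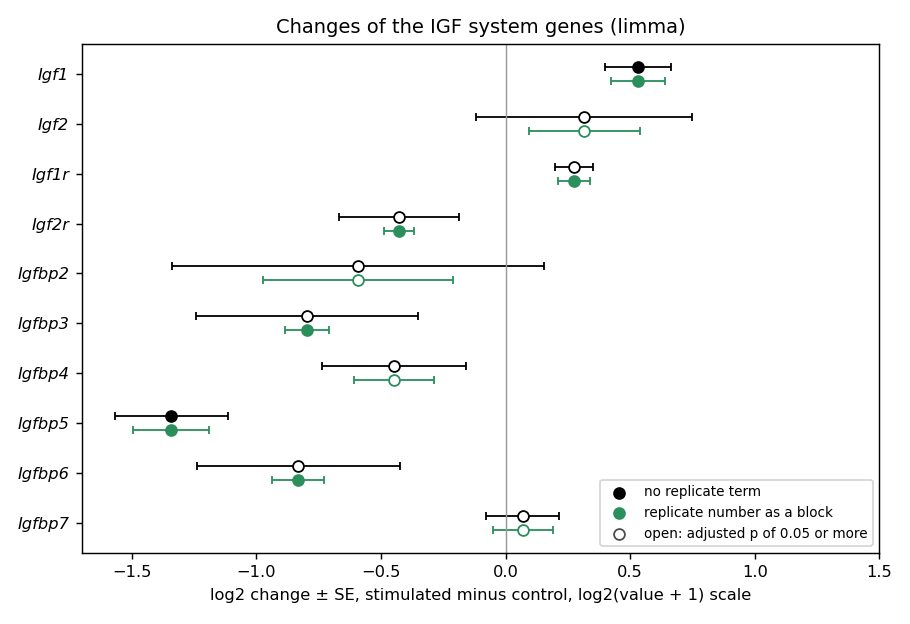
Log2 change ± SE (stimulated minus control) of the 10 genes by limma without a replicate term (black, upper) and with the replicate number as a block (green, lower), where filled points have an adjusted p under 0.05. The 2 filled black points are Igf1 and Igfbp5, and the block adds Igf1r, Igf2r, Igfbp3 and Igfbp6 with unchanged estimates and smaller errors.

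Of the 6 binding protein genes, Igfbp5 fell and 5 did not pass, and with the replicate block 3 fell and 3 did not pass. Of all genes tested, 4.75% fell without the block and 12.0% with it. Their median change was -0.69. Without both replicate 2 libraries, limma called the same 3 binding protein genes and Igf2r as lower, against 11.1% of all genes called (4.13% lower).

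Igfbp5 encodes a binding protein that attaches to extracellular matrix and is cleaved by the protease PAPP-A. It lies on the minus strand of chromosome 1 from 72857932 to 72874884. It was at 3769, 2658 and 5297 in stimulated replicates 1, 2 and 3 and at 9380, 9238 and 9971 in the controls. All stimulated libraries were far below all controls, and the controls were within a narrow range (3908 ± 1325 in stimulated and 9530 ± 389 in control samples, a ratio of means of 0.41). The change was -1.34 ± 0.23 (limma adjusted p = 0.0119), with -1.32, -1.80 and -0.91 within pairs 1, 2 and 3. Leaving out control replicate 3 gave -1.31, which was not called (limma adjusted p = 0.0563). The other single omissions kept the call, with changes from -1.59 to -1.09 over all 6.

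The 5′ flank of Igfbp5 is shown as that of the gene that fell, at chr1:72874816-72875115 (GRCm38.p6, RefSeq start), printed 5′ to 3′ along the minus strand. Capitals mark GGAGCC, another GC-rich element described for BMP-activated SMADs.
Igfbp5: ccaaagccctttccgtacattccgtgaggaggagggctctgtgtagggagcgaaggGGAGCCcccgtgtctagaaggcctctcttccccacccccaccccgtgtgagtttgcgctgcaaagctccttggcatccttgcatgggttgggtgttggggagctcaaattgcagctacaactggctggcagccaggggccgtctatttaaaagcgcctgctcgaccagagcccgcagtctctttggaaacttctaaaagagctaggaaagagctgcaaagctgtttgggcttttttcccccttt
GGAGCC, searched on both strands, starts at position -194 of this window. It was found in windows of 6 of the 10 genes (7 of 14 windows) and in 30.8% of all windows. GTCTAGAC, a palindromic SMAD element, was in none of the 14 windows and in 0.213% of all. Each of the 2 windows printed holds a single match, so no motifs overlap there.

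Igfbp3 encodes the main carrier of IGFs in serum. Its gene is on the minus strand of chromosome 11 from 7206086 to 7213923. Values were 1663, 3894 and 1903 in stimulated replicates 1, 2 and 3 and 3114, 7394 and 2798 in the controls. It was lower in each stimulated library than in its same-numbered control, by 0.90, 0.92 and 0.56 on the log2 scale, but stimulated replicate 2 was above control replicates 1 and 3. The change was -0.80 ± 0.45 (limma adjusted p = 0.295) and, with the replicate block, -0.80 ± 0.09 (adjusted p = 0.00143). Endothelial cells also make Igfbp3. The endothelial marker sum was high in replicate 2 of both groups, but so were the lung epithelial and mesothelial sums. Of all genes, 22.7% were highest in replicate 2 of both groups, and the part of any cell type in Igfbp3 was not tested. Without both replicate 2 libraries the change of Igfbp3 was -0.73 (limma adjusted p = 0.0271).

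Igfbp6 encodes a binding protein with a preference for IGF-II. It lies on the plus strand of chromosome 15 from 102144362 to 102149511. It was at 2033, 981 and 1744 in stimulated replicates 1, 2 and 3 and at 3429, 1501 and 3814 in the controls. Replicate 2 was again the lowest in each group and made the groups overlap. The change was -0.83 ± 0.41 (limma adjusted p = 0.232), and -0.83 ± 0.10 with the replicate block (adjusted p = 0.00227). It was -0.94 without both replicate 2 libraries (limma adjusted p = 0.0192).

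Igfbp4 encodes a substrate of PAPP-A that restrains IGF action. It is on the plus strand of chromosome 11 from 99041244 to 99054392. It was at 5720, 2984 and 4781 in stimulated replicates 1, 2 and 3 and at 5366, 4684 and 8248 in the controls. Pair 1 differed by 0.09 and pairs 2 and 3 by -0.65 and -0.79, so the direction was not shared. The change of -0.45 ± 0.29 did not pass limma (adjusted p = 0.362), nor with the replicate block (adjusted p = 0.0861). With the block and equal library totals together it was -0.62 and passed limma (adjusted p = 0.0303).

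Igfbp2, whose protein carries an integrin-binding motif, had the largest standard error of the 10 genes. It was at 503, 182 and 259 in stimulated replicates 1, 2 and 3 and at 698, 128 and 911 in the controls. The change of -0.59 ± 0.75 did not pass limma (adjusted p = 0.658), and ranged from -1.47 to -0.06 when 1 library was left out. Igfbp2 lies on the plus strand of chromosome 1 from 72824503 to 72852474, 5.5 kb from Igfbp5, and the ends of these neighbouring genes face each other.

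Igfbp7 encodes a matrix-associated protein with low affinity for IGFs. It had the highest per-kb level of the 10 (given further on), with normalized counts of 13783, 20520 and 15136 in stimulated replicates 1, 2 and 3 and of 15428, 15105 and 15907 in the controls. Stimulated replicate 2 stood above the other 5 libraries, which were close together. The change was 0.07 ± 0.15 (limma adjusted p = 0.803), and -0.10 with equal library totals or without stimulated replicate 2. Igfbp7 is on the minus strand of chromosome 5 from 77349240 to 77408041, and exons of Polr2b on the opposite strand cover 7.0% of its exonic bases.

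Levels of different genes were compared per kb of annotated exon. In both groups Igfbp7 came first, at 13630 ± 2948 normalized counts per kb in stimulated and 12800 ± 334 in control samples. Igfbp6 came second, at 1426 ± 489 per kb in stimulated and 2621 ± 1114 in control samples, and no library of it reached the range of Igfbp7. In stimulated samples the order then ran Igf2r, Igfbp4, Igfbp3, Igfbp5, Igf1, Igf1r, Igfbp2 and Igf2. Neighbours in it overlapped between libraries except Igfbp7 and Igfbp6, Igf1 and Igf1r, and Igfbp2 and Igf2. In control samples Igfbp5 came right after Igf2r, followed by Igfbp3, Igfbp4, Igf1, Igfbp2, Igf1r and Igf2, and the neighbours without overlap were Igfbp7 and Igfbp6, Igfbp4 and Igf1, and Igf1r and Igf2. The level of Igf1 was 620 ± 112 per kb in stimulated and 425 ± 21 in control samples, and that of Igf2 was 27.7 ± 10.7 and 23.1 ± 10.4 per kb in stimulated and control samples.

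Each binding protein gene was also expressed as a share of the 6 genes within a library. Igfbp7 held 71.5, 83.5 and 74.5% of the summed per-kb level of the 6 genes in stimulated replicates 1, 2 and 3, against 63.8, 66.2 and 61.2% in the controls. Igfbp5 held 3.93, 2.18 and 5.25% in stimulated replicates 1, 2 and 3 and 7.81, 8.15 and 7.72% in the controls. Neither share overlapped between groups, while those of Igfbp2, Igfbp3, Igfbp4 and Igfbp6 did. For comparison, 33.2% of all genes did not overlap in their normalized counts, and the shares were not tested. The 5 genes other than Igfbp7 summed to 4555, 3343 and 4281 per kb in stimulated replicates 1, 2 and 3 and to 7233, 6380 and 8345 in the controls, again without overlap. Igfbp7 was the only gene of the 6 whose mean was not lower, and leaving it out was not planned. A lower mean of this sum therefore follows from the choice of genes. With Igfbp7 included, the sums were 17690 ± 2313 in stimulated and 20120 ± 1319 per kb in control samples and overlapped. These shares show unequal change within a library, not which gene changed.

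**Figure D3:**
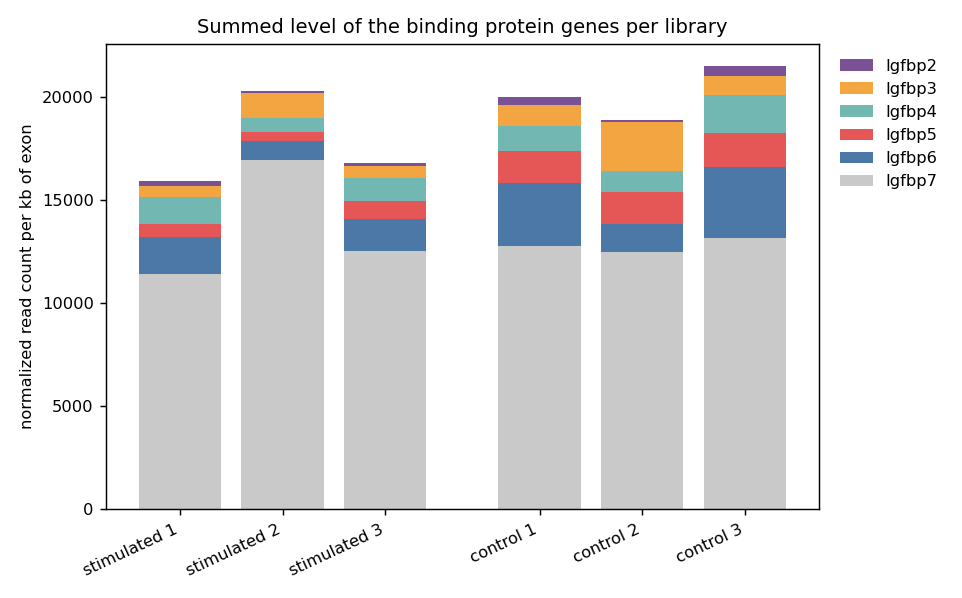
Normalized read count per kb of exon of the 6 binding protein genes, stacked for each of the 3 stimulated (left) and 3 control (right) libraries on a linear axis from 0. The part above the grey Igfbp7 block is smaller in each stimulated library (3343 to 4555 per kb) than in each control (6380 to 8345 per kb). That part holds the 5 genes with a lower mean, and the full sums of the 6 genes overlap.

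Levels also differed by replicate number. In both groups replicate 2 was the lowest library for Igf2r, Igfbp2, Igfbp4, Igfbp5 and Igfbp6 and the highest for Igfbp3. Among all genes tested, replicate 2 was the lowest in both groups for 21.1% and the highest in both for 22.7% (43.7% together). For Igfbp3, replicate 2 was at 2.18-fold the mean of the other replicates in stimulated and 2.50-fold in control samples. Igfbp6 was at 0.520-fold and 0.415-fold and Igf2r at 0.640-fold and 0.629-fold in stimulated and control samples. The summed endothelial markers were at 3.37-fold and 3.46-fold, with all 12 highest in replicate 2 of both groups. The summed lung epithelial markers were at 3.47-fold and 4.11-fold, with 6 of 9 highest in replicate 2 of both groups. Most of that sum in replicate 2 came from Sftpc, while Scgb1a1 was at 589, 112 and 936 in stimulated replicates 1, 2 and 3. The smooth muscle sum was at 1.67-fold in stimulated and 1.27-fold in control samples, and the leukocyte sum at 0.704-fold and 1.19-fold. The part of these cell types in the levels of the 10 genes was not tested.

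**Figure D4:**
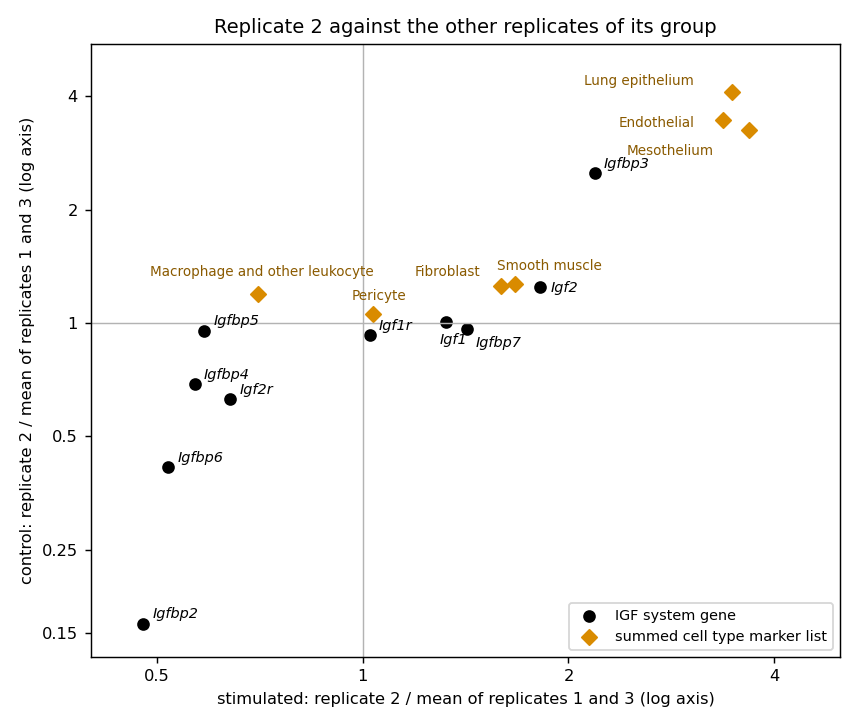
Replicate 2 divided by the mean of replicates 1 and 3, in stimulated (x) and control (y) samples on log axes, for the 10 genes (black points) and for 7 summed marker lists (diamonds). Igfbp3 lies toward the endothelial, epithelial and mesothelial lists at the upper right. Igfbp2, Igfbp4, Igfbp5, Igfbp6 and Igf2r lie below 1 on both axes, with Igfbp5 close to 1 in control samples (0.955).

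The rest of the pathway moved in both directions. Of 50 other listed genes, 47 were tested, of which 4 rose, 7 fell and 36 did not pass limma. With the replicate block 10 rose and 14 fell, beside 14.9% and 12.0% of all genes in that fit. The median log2 change was -0.08. The 11 calls among 47 genes without the block stand beside 13.4% of all genes, and the list was not tested as a whole.

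Among the proteases that cut binding proteins and their inhibitors, 1 of 6 passed, beside 13.4% of all genes. Stc1, which encodes stanniocalcin-1, an inhibitor of PAPP-A, fell. It was at 21, 69 and 43 in stimulated replicates 1, 2 and 3, against 142, 236 and 137 in the controls, with no overlap and a change of -2.04 ± 0.44 (limma adjusted p = 0.0269). That call was lost without stimulated replicate 3 (0.0997) or control replicate 1 (0.0763), 2 (0.0696) or 3 (0.0761), with changes of -2.43 to -1.59 over the 6 omissions. Pappa itself, the gene of the protease PAPP-A, was at 11470, 4421 and 10477 in stimulated replicates 1, 2 and 3 and at 6059, 2280 and 4969 in the controls. Every pair differed by about the same amount (0.92, 0.96 and 1.08), and the change was 0.98 ± 0.47 (limma adjusted p = 0.22, or 2e-04 in the blocked fit and 0.0204 without both replicate 2 libraries). In that blocked fit Pappa rose, and Stc1, Pappa2 and Htra1 fell, beside 14.9% of all genes that rose and 12.0% that fell. Pappa2 encodes a relative of PAPP-A and Htra1 another secreted protease, and both were picked out after their values were seen. Pappa2 was at 189, 38 and 120 in stimulated and at 267, 81 and 311 in control replicates 1, 2 and 3 (block adjusted p = 0.0121 by limma).

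The adaptors that link the IGF-I and insulin receptors to their effectors had 2 rises and 2 falls among 10. Of all genes, 8.61% rose and 4.75% fell. Sh2b2, the adaptor APS, was at 698, 720 and 680 in stimulated replicates 1, 2 and 3, against 201, 264 and 150 in the controls. The change was 1.80 ± 0.20 (limma adjusted p = 0.00294) and was called whichever library was left out. Irs2, a docking protein of both receptors, rose by 0.56 ± 0.14 (limma adjusted p = 0.0398), while Irs1, a related docking protein picked out after its values were seen, was not called (-0.40 ± 0.11, adjusted p = 0.0638; 0.0174 with the replicate block). The inhibitory adaptor Grb14 fell by 0.49 ± 0.11 and Sh2b1 fell by 0.34 ± 0.07 (limma adjusted p = 0.0267 and 0.026). Grb10, an imprinted inhibitory adaptor, was at 17335 ± 2893 in stimulated and 12975 ± 490 in control samples (0.40 ± 0.13, limma adjusted p = 0.0847; 0.0217 with the block and 0.0193 without stimulated replicate 1). With 1 library left out, Irs2 stayed called only without stimulated replicate 1 (0.0171, otherwise up to 0.139), Grb14 only without stimulated replicate 2 (0.0424, otherwise up to 0.104), and Sh2b1 only without stimulated or control replicate 2 (from 0.0484, otherwise up to 0.106).

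In the PI3K-AKT arm, 2 of 22 genes rose and 3 fell, beside 8.61% and 4.75% of all genes. Akt2, an AKT kinase that acts below the receptor, fell by 0.30 ± 0.08 (limma adjusted p = 0.0488), and Akt1 was at 9728 ± 543 in stimulated and 9619 ± 538 in control samples (0.02 ± 0.08, limma adjusted p = 0.923, and -0.16 with equal library totals). Pik3ca, a catalytic subunit of PI3K, rose by 0.39 ± 0.09 and Pdpk1, a kinase that activates AKT, by 0.37 ± 0.09 (limma adjusted p = 0.0355 and 0.0374). Foxo3, a transcription factor that AKT restrains, fell by 0.65 ± 0.08 (limma adjusted p = 0.0037), at 2248, 2311 and 2352 in stimulated and 3736, 3363 and 3746 in control replicates 1, 2 and 3. Tsc1, a brake on the mTOR kinase, fell by 0.40 ± 0.09 (limma adjusted p = 0.0277). Foxo3 was called whichever library was left out. Of the others, Pik3ca and Pdpk1 stayed called only without stimulated replicate 1 (0.0438 and 0.0349, otherwise up to 0.137), Tsc1 only without stimulated replicate 1 or control replicate 2 (from 0.034, otherwise up to 0.113), and Akt2 in none of the 6 (0.0624 to 0.171). With equal library totals Pik3ca (0.121), Pdpk1 (0.152) and Irs2 (0.0875) were not called by limma. The Foxo3 relatives Foxo1 and Foxo4, picked out after their values were seen, were not called and differed in direction. Their changes were 0.50 ± 0.15 and -0.50 ± 0.13 (limma adjusted p = 0.068 and 0.0538, or 0.00336 and 0.00391 with the replicate block).

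**Figure D5:**
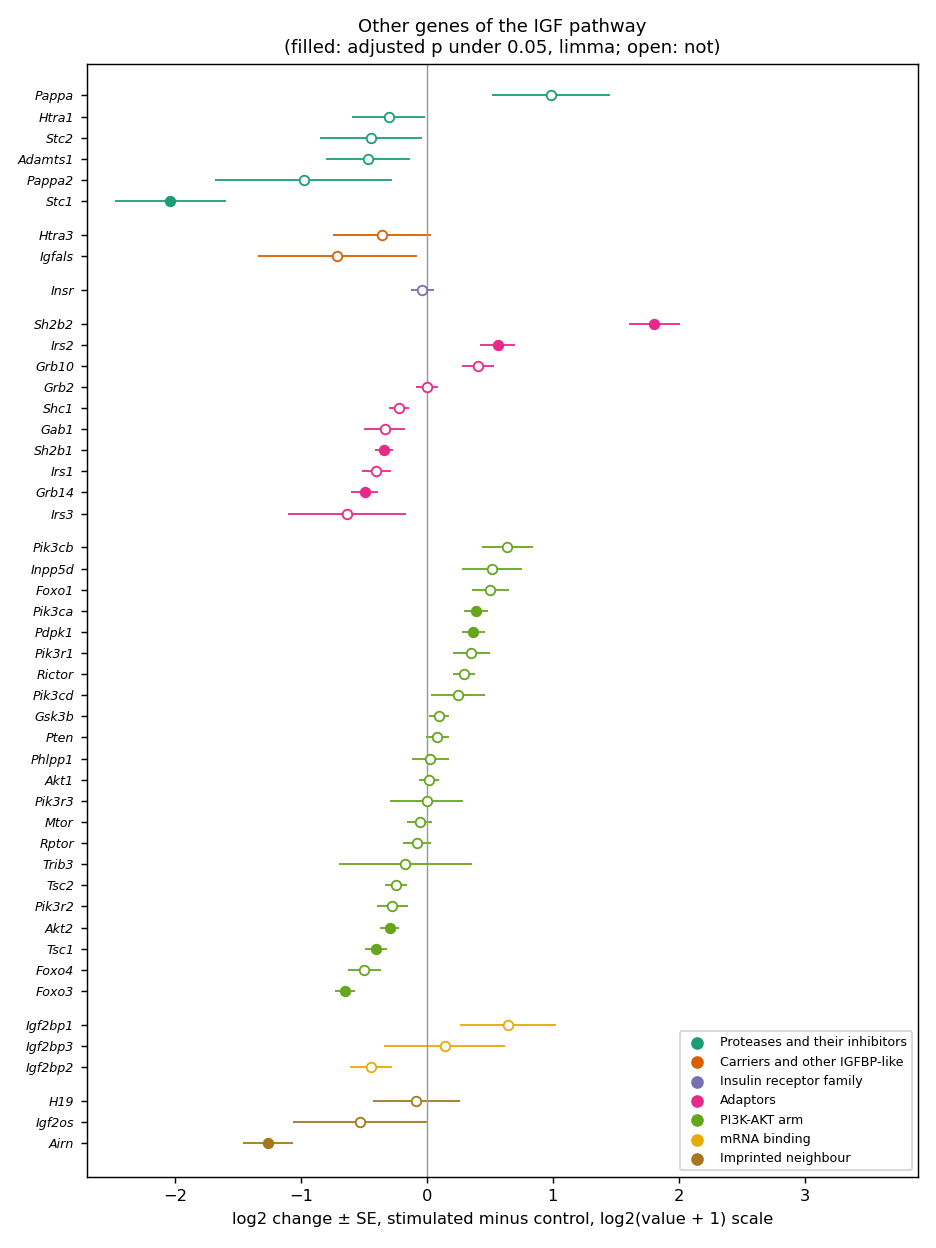
Log2 change ± SE (stimulated minus control, log2(value + 1) scale) of the 47 other pathway genes tested, grouped and coloured by role, where filled points have a limma adjusted p under 0.05. The 11 filled points are 4 rises, led by Sh2b2 (1.80) and Irs2 (0.56), and 7 falls, led by Stc1 (-2.04) and Airn (-1.26).

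Igf2 and Igf2r are imprinted genes, each beside a long noncoding RNA. Airn, which runs antisense through the first part of Igf2r and silences it on the paternal chromosome, was at 82, 73 and 93 in stimulated replicates 1, 2 and 3, against 200, 162 and 242 in the controls. The groups were apart and the change was -1.26 ± 0.20 (limma adjusted p = 0.00928), called whichever library was left out. The 2 gene bodies share 28.4 kb, which reaches the 5′ end of Igf2r. Annotated exons of Airn cover no exonic base of Igf2r. If counting ignored strand, unspliced RNA of either gene there could count toward the other. H19, 72.6 kb from Igf2, was at 335, 638 and 625 in stimulated and 739, 351 and 612 in control replicates 1, 2 and 3 (-0.08 ± 0.35, limma adjusted p = 0.907). The mRNA-binding protein genes Igf2bp1, Igf2bp2 and Igf2bp3 were not called without the block. With it, Igf2bp2 passed narrowly as lower (-0.44, limma adjusted p = 0.0494), and its groups did not overlap.

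For the 2 genes that passed, the protein-coding genes with the most similar pattern were found by Pearson correlation of log2 values over the 6 libraries, among 12532 genes with a mean of at least 50. For Igf1 they were Ppp1r15a (r = 0.997), a regulatory subunit of a stress-response phosphatase, Eprs (0.997), a tRNA synthetase, and Prpf4 (0.995), a splicing factor. For Igfbp5 they were Pcdhb18 (0.999), a protocadherin, Cebpzos (0.996) and Zfhx4 (0.992), a zinc finger homeobox gene. The points share the library and the treatment difference, and with 6 points and so many genes such values are a description.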

How the data were processed

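Whole-transcriptome libraries were made from total RNA with a stranded kit, per the labels' protocols. The submitters' processing notes name Trimmomatic 0.38, FastQC, featureCounts 1.6.3, STAR 2.6.1d and, among the authors' tools, DESeq2 1.18.1, and list mm10, hg38 and GRCh38. Which strand was counted, and with which annotation, is not given in the sources used here. The deposited values are a score per gene. From the steps between low values, they are whole reads scaled once per library by the authors and rounded. Whole reads could not be recovered where that factor was below 1, so count models were not used.

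Differences were tested with limma 3.58.1 (R 4.3.3, intensity trend) on log2(value + 1), for 21743 genes with a mean of at least 1, with treatment as the only term, Benjamini-Hochberg adjustment over all genes, a threshold of 0.05 and 4 residual degrees of freedom. The pseudocount understates changes of low genes. The procedure was tested on simulated data. Levels between genes were compared per kb of GENCODE M21 exon union, and 21747 of 21785 identifiers matched that release. Promoter windows are RefSeq's (GRCm38.p6), and all 10 genes matched.

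Deviations from the group means over 13185 genes had correlations of 0.747, 0.741 and 0.218 within the pairs 1, 2 and 3. All exceed 0.1, and pairing by number was therefore accepted, although no label gives the meaning of a number and control replicate 3 was closer to stimulated replicate 1 (0.287). The alternatives were 4 scalings (TMM, RLE, upper-quartile and equal totals), pseudocounts, filters, limma-voom, the replicate block and omitted libraries.

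The members, lists, motifs and tests were chosen with earlier results of these data known. Named genes are the 10 members, H19, each other pathway gene past the threshold, the 3 with the highest mean values that did not pass, and the 3 genes most like each called member. Irs1, Pappa2, Htra1, Foxo1, Foxo4, the Igf2bp genes and single marker genes are named outside this rule, after their values were seen. A further gene of the pathway list is not reported here.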

Additional observations from a re-analysis of the deposited data

How the results depend on the processing

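Of 180 combinations of a member gene and an alternative, 151 kept direction and side of the threshold, 10 lost a call, 12 gained one and 7 changed direction. The 2 member calls became 1 with upper-quartile scaling, equal library totals or limma-voom, each of which lost Igf1. They became 3 with at least 1 CPM required in 3 libraries and 6 with the replicate block (alone or with equal library totals). Without both replicate 2 libraries there were 4 calls, all of them falls and without Igf1. The number of member calls ranged from 0 to 2 when 1 library was left out. The 11 calls among other pathway genes became 24 with the replicate block and 25 with the block and equal library totals, and ranged from 3 to 10 with 1 library left out. Over all genes, 2905 calls among 21743 tested became 5837 of 21743 and 6958 of 21723 in the same 2 block fits. They became 3262 of 14217 with at least 1 CPM required in 3 libraries, and 917 to 2384 with 1 library left out. For each of the 10 members the block gave a smaller standard error at the same estimate. With equal library totals 33.4% of the calls over all genes were rises, with upper-quartile scaling 51.2%, and as deposited 64.5%. Directions changed for genes that were not called. The change of Igfbp7 was -0.01 with upper-quartile scaling, -0.10 with equal library totals (with or without the block) and with limma-voom, and -0.12 without both replicate 2 libraries. That of Akt1 was -0.06 with upper-quartile scaling and without both replicate 2 libraries, and -0.16 with equal library totals (with or without the block) and with limma-voom. With 1 library left out, the changes ran from -0.10 to 0.19 for Igfbp7, from -0.13 to 0.60 for Igf2, from -0.03 to 0.06 for Akt1 and from -0.39 to 0.22 for H19. Apart from the effect of fewer samples in the omissions, the cause was not tested.

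Counting error weighs on low genes, and among the called genes Stc1 and Airn were below 250 in each library.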
